A study of Neogale vison with 6 samples.

Results

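The genes of the mTOR complexes, of the TSC complex that restrains them and of their translation effectors were followed in Mv1Lu cells, an epithelial cell line from mink lung, after cholesterol depletion (CD). They were chosen by gene symbol as a list of 10 genes, MTOR, RPTOR, RICTOR, MLST8, AKT1S1, TSC1, TSC2, RHEB, RPS6KB1 and EIF4EBP1. Of these, 9 were found among the 24526 genes of the count table and all 9 had enough reads to be tested, whereas no row carries the symbol RPS6KB1. Some rows of the table have no symbol, and whether one of them holds this kinase is not known, so no value is given for it. The data comprised 6 RNA-seq libraries in 2 groups of 3, untreated (control) and CD, all of the same line and with no transgene or mutation named in the labels. For CD, the cells were kept for 16 h with 50 μM of the statin lovastatin, which blocks HMG-CoA reductase, and 50 μM mevalonate in medium with 10% lipoprotein-deficient serum (LPDS), so the comparison covers drug, mevalonate and change of serum together. Nothing in the sources used here says whether the 3 libraries of a group came from separate cultures, and the p-values then measure only the spread between these libraries.

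mTOR is a kinase that works in a pair of complexes. mTOR complex 1 (mTORC1), built around RPTOR, promotes protein synthesis and restrains autophagy when nutrients are plentiful, and mTOR complex 2 (mTORC2), built around RICTOR, phosphorylates kinases such as AKT and SGK1. The small GTPase RHEB, which is anchored to membranes by a farnesyl group made in the mevalonate pathway, activates mTORC1, and the TSC complex switches RHEB off. Cholesterol on lysosomes is known as one of the signals that activate mTORC1, and most of the control of the pathway acts on proteins, whereas the values below are levels of mRNA.

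The libraries held between 13473820 and 18633764 reads counted on genes. Levels are given as CPM, the reads of a gene scaled to the reads counted on all tested genes in that library after TMM normalization. Over 12148 tested genes, edgeR's quasi-likelihood test with a false discovery rate (FDR) below 0.05 decided which differences were called. The CD libraries differed more from each other than the control libraries, with a biological coefficient of variation of 0.214 against 0.0838, and of 0.140 when CD replicate 3 was left out. The share of reads that could not be mapped was 9.37% in CD replicate 3 and at most 4.33% in the other CD libraries, but reached 18.4% in the control libraries. For these reasons the log2 fold changes of the 9 genes and of the other pathway genes named are also given without CD replicate 3. HMGCS1, an enzyme of cholesterol synthesis induced when sterols are low, was higher in CD by a log2 fold change of 3.43 (FDR 4.17e-07, edgeR), as was INSIG1 (1.67), with 3.52 and 1.71 without CD replicate 3. Of 6 epithelial markers, 4 were found in the table, and of these KRT19 was lower (log2 fold change -1.03) and CLDN4 higher (3.55), both called by edgeR, whereas EPCAM and CDH1 were below 1 CPM on average in each group. The summed level of the epithelial markers lay between 884 and 1012 CPM in control and between 385 and 541 CPM in CD libraries, that of 6 fibroblast and mesenchymal markers between 310 and 387 CPM and between 182 and 232 CPM, that of 4 endothelial markers between 0.0723 and 0.220 CPM and between 1.17 and 1.96 CPM, with VWF called higher (log2 fold change 3.38, FDR 8.82e-04, edgeR), and that of 3 immune markers found in the table lay between 5.57 and 6.67 CPM in control and between 21.1 and 26.0 CPM in CD libraries. Their part in the results was not tested. In these bulk samples, fewer cells that express a gene and less RNA per cell cannot be told apart.

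In CD, the kinase MTOR and the mTORC1 subunits RPTOR, MLST8 and AKT1S1 were lower than in control, with changes of -38.5%, -45.3%, -31.4% and -24.5%, respectively. RICTOR, both TSC genes, RHEB and EIF4EBP1 were not called. Thus 4 of 9 genes (44.4%) were lower and 0 were higher, next to 47.7% of all tested genes called in either direction, 22.9% lower and 24.8% higher (edgeR). At an unadjusted p under 0.05 the numbers were likewise 4 lower and 0 higher, and DESeq2 and limma-voom also called 4 lower and 0 higher. The median log2 fold change of the 9 genes was -0.30, beside 0.06 over all tested genes. For 4 genes all CD libraries lay below all control libraries and for 1, RHEB, above them with TMM but with none of the other scalings tried, whereas the groups did not overlap in 58.0% of all tested genes.

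**Figure D1:**
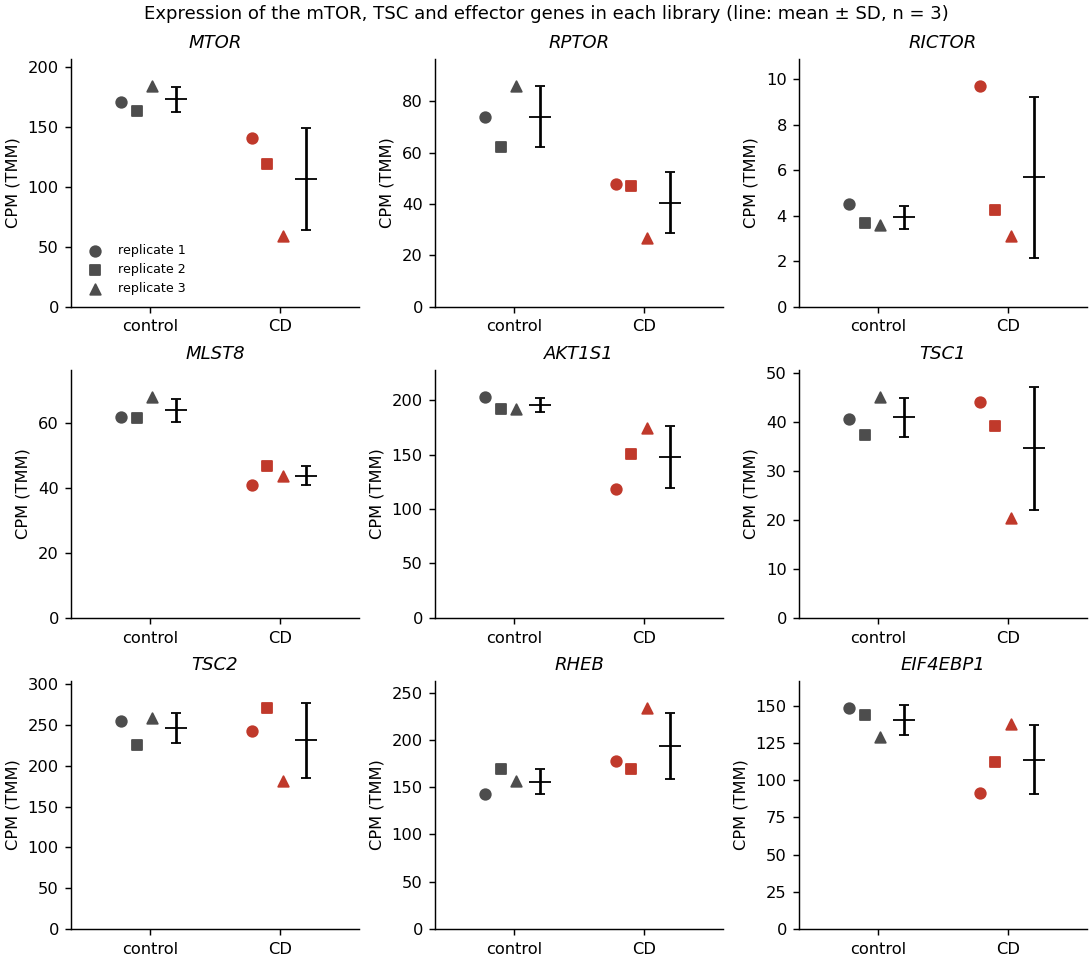
Level of each of the 9 genes (y axis, CPM after TMM normalization, from 0) in the 3 control (grey) and 3 CD (red) libraries; symbols mark the replicate number and lines the mean ± SD (n = 3). All CD values of MTOR, RPTOR, MLST8 and AKT1S1 lie below the control values, and CD replicate 3 is the lowest library for MTOR, RPTOR, RICTOR, TSC1 and TSC2.

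MTOR (ENSNVIG00000007940 in the table), the catalytic subunit of both complexes, was at 171, 164 and 185 CPM in control replicates 1, 2 and 3 and at 141, 120 and 59.1 CPM in CD replicates 1, 2 and 3. All CD libraries lay below all control libraries, and CD replicate 3 was far below the other CD libraries. The log2 fold change was -0.70 (standard error 0.26, 95% interval -1.27 to -0.13, FDR 0.0448, edgeR). Without CD replicate 3 the fall was smaller, at -0.45 (FDR 4.74e-04 in edgeR, standard error 0.11). That fit drops the CD library farthest from the others, so its smaller standard error and FDR are no added support. MTOR was not called without control replicate 1, 2 or 3, with log2 fold changes of -0.71, -0.74 and -0.65 (FDR 0.0891, 0.0891 and 0.133, edgeR). The call was also lost without CD replicate 2, at -0.83 (FDR 0.0528, edgeR). With upper quartile scaling, with total counts or without the filter on low counts the values were -0.67, -0.67 and -0.70, again not called (FDR 0.0605, 0.0872 and 0.163, edgeR).

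RPTOR (ENSNVIG00000015501), the scaffold that brings substrates to mTORC1, was at 74.0, 62.2 and 86.2 CPM in the control and at 47.8, 47.1 and 26.7 CPM in the CD libraries. The groups did not overlap, and CD replicates 1 and 2 differed by less than 1 CPM while CD replicate 3 was lower. RPTOR fell with a log2 fold change of -0.87 (FDR 0.00825 in edgeR, standard error 0.22), and -0.68 without CD replicate 3 (FDR 3.37e-06, edgeR). RPTOR passed the threshold in all 16 alternatives, which include leaving out every single library, with log2 fold changes from -1.02 to -0.68.

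MLST8 (ENSNVIG00000022824), a subunit shared by both complexes that binds the kinase domain, was at 61.8, 61.7 and 68.1 CPM in the control and at 41.1, 46.7 and 43.7 CPM in the CD libraries. Among the 9 genes it had the tightest CD values, with a coefficient of variation of 6.44% beside 5.75% in the control, and CD replicate 3 lay between the other CD libraries. Its log2 fold change of -0.54 (FDR 0.00372 in edgeR, standard error 0.12) was -0.58 without CD replicate 3, and the gene was called in all 16 alternatives, between -0.62 and -0.49.

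AKT1S1 (ENSNVIG00000014694) encodes PRAS40, an inhibitory subunit of mTORC1 that is released when AKT phosphorylates it. It was at 203, 192 and 192 CPM in the control and at 118, 150 and 175 CPM in the CD libraries, so that here CD replicate 3 was the closest to the control. AKT1S1 fell with a log2 fold change of -0.41 (FDR 0.0403 in edgeR, standard error 0.14), and -0.58 without CD replicate 3 (FDR 1.89e-05, edgeR). The call was lost in 6 of the 16 alternatives, with upper quartile scaling (FDR 0.0537, edgeR) and when any library other than CD replicate 3 was left out, where the log2 fold change lay between -0.45 and -0.26 (FDR 0.0832 to 0.125, edgeR). Without CD replicate 1 it was -0.26.

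RICTOR (ENSNVIG00000000960), the subunit that defines mTORC2, had few reads, with 63, 51 and 65 counts in the control and 158, 69 and 43 counts in the CD libraries. This corresponded to 4.51, 3.69 and 3.58 CPM in control and 9.71, 4.23 and 3.10 CPM in CD. CD replicate 1 stood above all other libraries and CD replicate 3 below them. The log2 fold change of 0.54 was not called (standard error 0.38, 95% interval -0.30 to 1.39, FDR 0.261, edgeR). The direction rested on single libraries, since leaving out CD replicate 3 gave 0.79 (FDR 0.0158, edgeR) and leaving out CD replicate 1 gave -0.077 (FDR 0.804, edgeR).

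TSC1 (ENSNVIG00000018736) and TSC2 (ENSNVIG00000022292) encode the scaffold and the GTPase-activating subunit of the TSC complex, the brake on RHEB. TSC1 was at 40.6, 37.3 and 45.2 CPM in control and at 44.2, 39.3 and 20.4 CPM in CD libraries. Its CD replicates 1 and 2 lay within the range of the control and only CD replicate 3 was lower. For TSC1 the log2 fold change was -0.24 (95% interval -0.79 to 0.30, FDR 0.438, edgeR), and -0.012 (-0.26 to 0.24) without CD replicate 3. TSC2 was at 255, 225 and 259 CPM in control and at 242, 271 and 181 CPM in CD libraries, again with CD replicate 3 as the lowest of the 6. Its log2 fold change was -0.09 (95% interval -0.43 to 0.25, FDR 0.655, edgeR) and 0.025 (-0.20 to 0.25) without CD replicate 3. Neither gene was called in any of the 16 alternatives.

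RHEB (ENSNVIG00000000981) was at 143, 169 and 156 CPM in control and at 178, 169 and 234 CPM in CD libraries. CD replicate 3 was the highest of the 6, and CD replicate 2 matched control replicate 2 to within 0.01 CPM, so that the groups overlapped under each of the other scalings tried (total counts, upper quartile and DESeq2 size factors). The log2 fold change of 0.31 was not called (95% interval -0.01 to 0.63, FDR 0.0985, edgeR), was 0.12 (-0.10 to 0.34) without CD replicate 3, and was called in none of the 16 alternatives.

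EIF4EBP1 (ENSNVIG00000011273) encodes 4E-BP1, which blocks the cap-binding factor eIF4E until mTORC1 phosphorylates it. It was at 149, 144 and 129 CPM in control and at 91.7, 112 and 138 CPM in CD libraries. CD replicates 1 and 2 lay below all control libraries and CD replicate 3 within their range. Over all libraries EIF4EBP1 had a log2 fold change of -0.30 (95% interval -0.64 to 0.03, FDR 0.125, edgeR), and the gene was called in 1 of the 16 alternatives, that without CD replicate 3, with -0.50 (FDR 2.04e-04, edgeR).

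**Figure D2:**
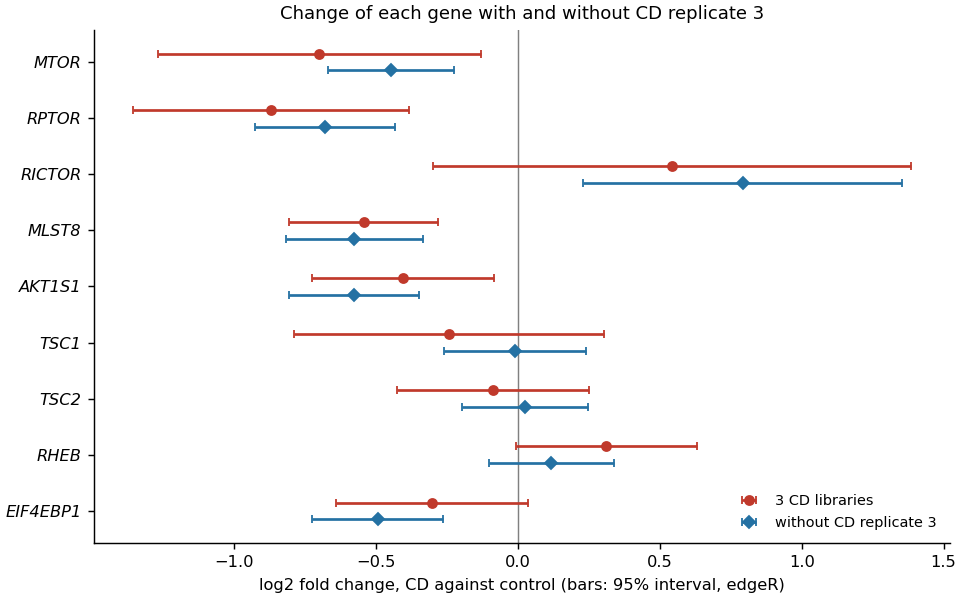
Log2 fold change of CD against control (x axis) for the 9 genes (y axis), from all libraries (red circles) and without CD replicate 3 (blue diamonds); bars are 95% intervals from edgeR. MTOR, RPTOR, MLST8 and AKT1S1 lie below 0 in both fits, EIF4EBP1 and RICTOR move clear of 0 when CD replicate 3 is left out, and TSC1 and TSC2 come to lie within 0.03 of 0.

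Without CD replicate 3, MTOR, RPTOR, MLST8, AKT1S1 and EIF4EBP1 were lower and RICTOR was higher, 5 and 1 of the 9 genes, next to 29.2% lower and 29.3% higher among 12330 tested genes in that fit (edgeR). The omission therefore raised the share of calls over all genes as well, from 47.7% to 58.6%. The call of RICTOR in that fit rests on CD replicate 1 (9.71 CPM), since CD replicate 2 (4.23 CPM) lay within the range of the control.

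CD replicate 3 did not deviate in 1 direction. Relative to the mean of CD replicates 1 and 2, it was lower for MTOR, RICTOR, TSC1, RPTOR and TSC2, with log2 differences of -1.14, -1.05, -1.03, -0.83 and -0.50. For MLST8 the difference was -0.0042, while AKT1S1, RHEB and EIF4EBP1 were higher in this library, by 0.39, 0.43 and 0.44. Over all tested genes the 25th and 75th percentiles of these differences were -0.38 and 0.29, and MTOR was among the lowest 3.90% of genes. The 5 genes that were lowest in CD replicate 3 encode the large proteins of the group, and the genes that were not encode the small ones. No transcript lengths of the assembly used by the authors were at hand, so the relation was followed with 26 other genes known to encode very large proteins, such as DYNC1H1, HUWE1 and KMT2D, a list picked by protein size after the values of the 9 genes had been seen, so that its counts are a description. Of these, 24 were tested, and CD replicate 3 was the lowest CD library for 22 and the lowest of all 6 libraries for 21 (87.5%, next to 25.7% of all tested genes). Their median log2 difference from the control mean was 0.36 in CD replicate 1, -0.18 in CD replicate 2 and -0.57 in CD replicate 3, beside 0.07, 0.01 and 0.0044 for all tested genes. The differences from the control mean in the same libraries were -0.30, -0.53 and -1.55 for MTOR and -0.62, -0.64 and -1.46 for RPTOR, below the control in every CD library. For RICTOR they were 1.31, 0.12 and -0.33, for TSC1 0.11, -0.06 and -1.004, and for TSC2 -0.02, 0.14 and -0.44, of either sign. Of the 24 large-protein genes, HUWE1, MDN1 and ATM were also below the control mean in every CD library. With all libraries, 2 of the 24 (8.33%) were called, HUWE1 and MDN1, both lower, next to 47.7% of all tested genes (edgeR). Without CD replicate 3 there were 6 higher and 2 lower, next to 29.3% and 29.2% of all tested genes. The part of transcript length in these values was not tested.

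**Figure D3:**
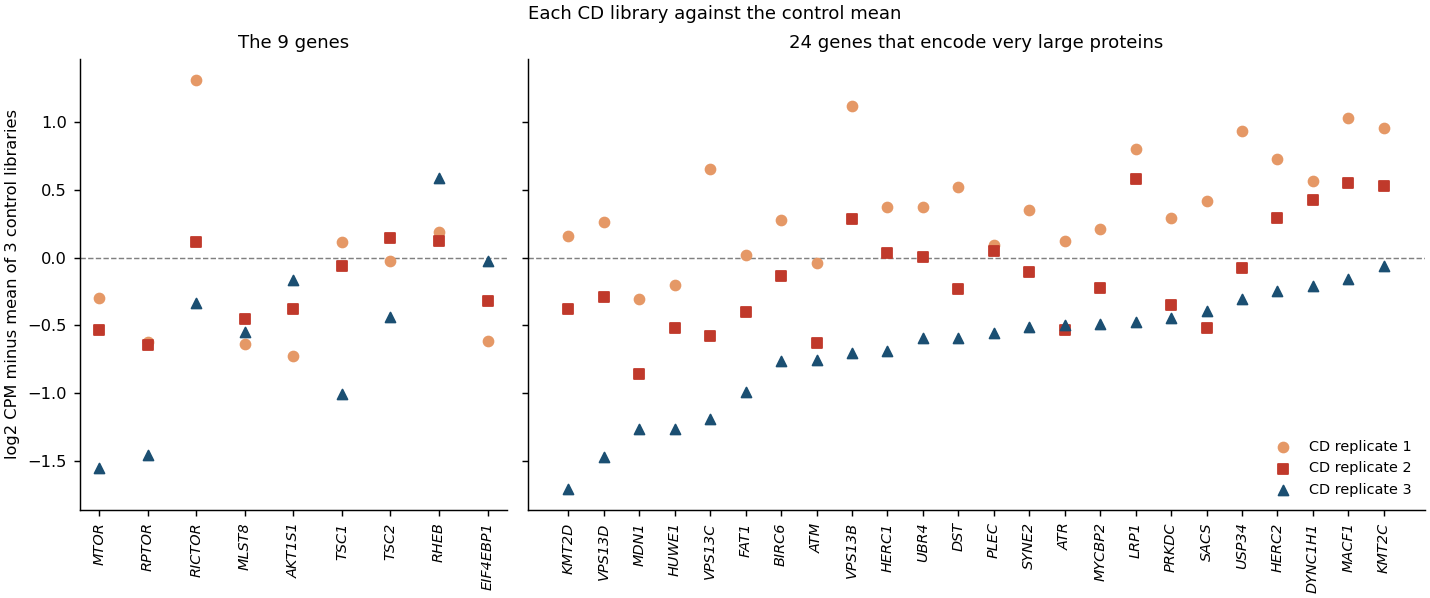
Difference of each CD library from the mean of the 3 control libraries (y axis, log2 CPM) for the 9 genes (left) and for 24 tested genes that encode very large proteins (right, ordered by CD replicate 3); symbols and colours mark the CD replicate. In the right panel CD replicate 3 is the lowest CD library for 22 of 24 genes, and in the left panel it is so for MTOR, RPTOR, RICTOR, TSC1 and TSC2 and not for the other 4.

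To compare members with each other independently of the scaling of libraries, the ratio of the counts of 2 genes was taken within each library for 4 pairs (exact permutation test, two-sided, for which 0.1 is the smallest p with 3 libraries against 3). The ratio of RPTOR to RICTOR, the subunits that tell mTORC1 from mTORC2, was 16.4, 16.9 and 24.1 in control and 4.92, 11.1 and 8.63 in CD libraries. All CD ratios lay below all control ratios. On the log2 scale the ratio changed from 4.23 ± 0.308 to 2.96 ± 0.601 (SD, n = 3 each), a difference of -1.27 (exact permutation test, p = 0.1, adjusted p = 0.4 over the 4 pairs), with -1.35 if CD replicate 3 is left out and -0.94 if CD replicate 1 is. The ratio of MTOR to its partner MLST8 was between 2.65 and 2.77 in the control libraries, a narrow range, and was 3.43, 2.56 and 1.35 in CD replicates 1, 2 and 3. The CD libraries therefore lay on both sides of the control, with a log2 difference of -0.25 (exact permutation test, p = 0.7, adjusted p = 0.7), which turned to 0.13 without CD replicate 3. The log2 ratio of TSC1 to TSC2 differed by -0.21 (exact permutation test, p = 0.5, adjusted p = 0.667) and that of RHEB to TSC2 by 0.41 (p = 0.3, adjusted p = 0.6, exact permutation test), with overlapping groups. Without CD replicate 3 these differences were -0.03 and 0.10. The planned pair of EIF4EBP1 and RPS6KB1 could not be formed.

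**Figure D4:**
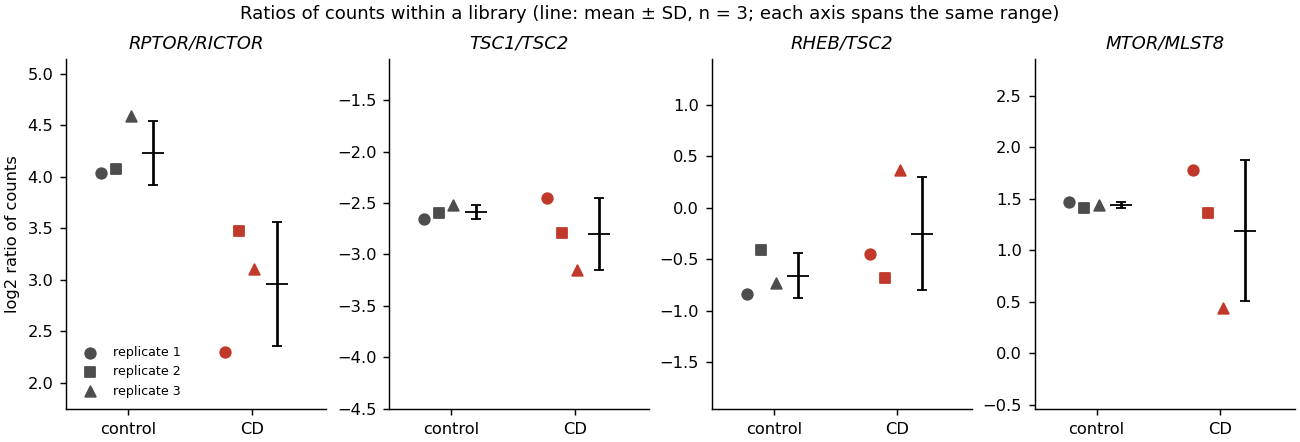
Log2 ratio of the counts of 2 genes in the same library (y axis; every panel spans the same range) for 4 pairs, in control (grey) and CD (red) libraries; symbols mark the replicate number and lines the mean ± SD (n = 3). The RPTOR/RICTOR ratio is lower in all CD libraries than in all control libraries, while the control values of MTOR/MLST8 are tight and the CD values spread around them.

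The rest of the pathway was followed with a list of 47 other genes, of which 42 were found by symbol and 41 tested. The list was chosen with earlier results of these data known, so the counts of its parts are a description. TBC1D7, EIF4E, STK11, PRKAA1 and DDIT4L were not found. In CD, 8 were higher and 11 lower (edgeR), together 46.3% of the list beside 47.7% of all tested genes, with a median log2 fold change of -0.03. Without CD replicate 3 the numbers were 13 and 13, next to 29.3% higher and 29.2% lower among all tested genes in that fit. Of the 8 higher genes 6, and of the 11 lower genes 8, were called under all 16 alternatives.

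The other subunits and assembly factors of the complexes held 4 lower and 0 higher genes among 6 tested (edgeR, with 4 and 0 also at an unadjusted p under 0.05 and without CD replicate 3). Over all tested genes 22.9% were lower and 24.8% higher, or 29.2% and 29.3% without CD replicate 3. PRR5 and PRR5L, which bind RICTOR in mTORC2, fell most. PRR5 was at 17.0, 18.1 and 17.8 CPM in control and at 2.95, 4.85 and 3.60 CPM in CD libraries (log2 fold change -2.21, FDR 2.26e-05 in edgeR, standard error 0.21). For PRR5L the control mean was 31.6 ± 1.60 CPM (SD, n = 3), and the CD libraries were at 7.68, 6.99 and 3.89 CPM. Its log2 fold change was -2.34 (FDR 3.00e-05, edgeR). For both genes every CD library was clearly below the control, with values of -2.21 for PRR5 and -2.14 for PRR5L if CD replicate 3 is omitted. MAPKAP1, the mTORC2 subunit also called SIN1, averaged 47.7 ± 4.70 CPM in control against 46.8 ± 1.35 CPM in CD (SD, n = 3 each; log2 fold change -0.03, 95% interval -0.30 to 0.25, FDR 0.867, edgeR). TTI1 and TELO2, which with TTI2 form a chaperone complex that assembles mTOR and related kinases, were lower, with log2 fold changes of -0.996 (FDR 0.00102, edgeR) and -0.74 (FDR 6.75e-04, edgeR). TTI2 was not called (-0.12, 95% interval -0.52 to 0.29). If CD replicate 3 is left out, the values were -0.88 for TTI1, -0.84 for TELO2, -0.17 for TTI2 and -0.043 for MAPKAP1. DEPTOR, an inhibitor that binds both complexes, had between 0 and 5 counts in each library, too few to be tested.

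None of the 4 homologs of the listed genes was called by edgeR, and at an unadjusted p under 0.05 and without CD replicate 3 the number was also 0, next to 47.7% of all tested genes called, or 58.6% without CD replicate 3. RPS6KB2, the S6 kinase that is counted here in the absence of RPS6KB1, was at 57.9 ± 4.39 CPM in control and at 60.6 ± 6.08 CPM in CD (SD, n = 3 each; log2 fold change 0.06, 95% interval -0.22 to 0.35, FDR 0.703, edgeR), with -0.022 without CD replicate 3. EIF4EBP2 had a pattern like that of TSC1, with 41.6, 33.3 and 17.7 CPM in CD against 38.6, 32.7 and 38.6 CPM in control libraries, and was not called with CD replicate 3 (log2 fold change -0.24) or without it (-0.00515).

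Among 11 tested translation effectors, 5 were lower and 1 was higher (edgeR), next to 22.9% and 24.8% of all tested genes. At an unadjusted p under 0.05 the numbers were 5 and 3, the added genes being EEF2K and MAF1 (log2 fold changes 0.35 and 0.34, FDR 0.0586 and 0.0513, edgeR). Leaving out CD replicate 3 gave 5 lower and 2 higher genes, next to 29.2% and 29.3% of all tested genes. In that fit EEF2K was called (0.45, FDR 3.76e-04, edgeR) and MAF1 was not (0.23, FDR 0.0793, edgeR). EIF4G1 and EIF4A1, the scaffold and the helicase of the eIF4F complex, whose cap-binding subunit EIF4E was not found by symbol, were lower, with log2 fold changes of -0.87 and -0.37 (FDR 9.44e-04 and 0.0256, edgeR), EIF4G1 from 1667 ± 145 to 913 ± 146 CPM (SD, n = 3 each). EIF4H, which stimulates the helicase EIF4A1, fell by 0.48 on the log2 scale (FDR 0.00445, edgeR). LARP1, an mTORC1 substrate that binds mRNAs of ribosomal proteins, and POLDIP3, which links S6 kinase to newly spliced mRNA, were lower, with log2 fold changes of -0.50 and -0.58 (FDR 0.0409 and 0.0115, edgeR). PDCD4, an inhibitor of EIF4A1 that S6 kinase marks for degradation, was the gene that rose, from 35.3, 39.5 and 31.6 CPM in control to 89.5, 71.0 and 89.5 CPM in CD libraries (log2 fold change 1.24, FDR 8.18e-05 in edgeR, standard error 0.14). The calls of EIF4A1, LARP1 and POLDIP3 were each lost without control replicate 3 (FDR 0.0876, 0.137 and 0.0594, edgeR), those of EIF4A1 and LARP1 also without control replicate 1 or 2 (FDR 0.0578 to 0.103, edgeR), and that of EIF4A1 without CD replicate 2 (FDR 0.0621, edgeR). LARP1 was also not called with upper quartile scaling or total counts (FDR 0.0546 and 0.0783, edgeR). RPS6, the ribosomal protein phosphorylated by S6 kinase, was not called (0.16, 95% interval -0.19 to 0.51). Without CD replicate 3 the values were -0.78 for EIF4G1, -0.44 for EIF4A1, -0.57 for EIF4H, -0.34 for LARP1, -0.46 for POLDIP3 and 1.14 for PDCD4, all called, and -0.077 for RPS6, which was not.

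Of 13 tested upstream kinases and regulators, 2 were called higher and 0 lower by edgeR (2 and 1 at an unadjusted p under 0.05), which is 15.4%, next to 47.7% of all tested genes. Leaving out CD replicate 3 gave 6 higher and 2 lower, next to 58.6% of all tested genes called. RPS6KA1, a kinase that can phosphorylate TSC2, had a log2 fold change of 0.39 (FDR 0.0207, edgeR), and DDIT4, a stress-induced inhibitor of mTORC1, of 0.37 (FDR 0.0444, edgeR). Both calls were lost without control replicate 1, 2 or 3 or CD replicate 2, where the FDR lay between 0.0593 and 0.217 (edgeR), and DDIT4 was not called in 10 of the 16 alternatives, DESeq2 and limma-voom among them. With CD replicate 3 left out, RPS6KA1 was at 0.45 and DDIT4 at 0.31, both called. AKT1, the kinase between growth factor receptors and TSC2, was at 331 ± 10.3 CPM in control and at 309 ± 17.3 CPM in CD (SD, n = 3 each; log2 fold change -0.10, 95% interval -0.33 to 0.14, FDR 0.467, edgeR), with -0.12 without CD replicate 3.

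All 7 genes listed as other substrates of the complexes were called, 5 higher and 2 lower, next to 47.7% of all tested genes called. These genes were listed with earlier results of these data known, so the count is a description. LPIN1, a phosphatidate phosphatase that mTORC1 keeps out of the nucleus, rose from 1.93, 2.24 and 2.48 CPM to 20.6, 20.0 and 11.9 CPM (log2 fold change 2.97, FDR 1.37e-05 in edgeR, standard error 0.26). SGK1, a kinase activated by mTORC2, rose by 2.26, GRB10, an adaptor that dampens insulin signaling, by 0.92 (FDR 9.87e-05, edgeR), ULK1, the kinase that starts autophagy, by 0.85, and TFEB, a transcription factor for lysosomal genes, by 0.75 (FDR 0.00764, edgeR). CAD, the enzyme that opens pyrimidine synthesis, was at 276, 267 and 337 CPM in control and at 153, 158 and 109 CPM in CD libraries (log2 fold change -1.07, FDR 4.42e-04 in edgeR, standard error 0.16), and PRKCA, a protein kinase C matured by mTORC2, fell by 0.81 on the log2 scale (FDR 0.00762, edgeR). None of the 7 had overlapping groups, as in 58.0% of all tested genes. In the fit without CD replicate 3, which called 58.6% of all tested genes, all 7 were also called. The values were 3.15 for LPIN1, 2.26 for SGK1, 0.88 for GRB10, 0.85 for ULK1, 0.63 for TFEB, -0.95 for CAD and -0.66 for PRKCA.

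**Figure D5:**
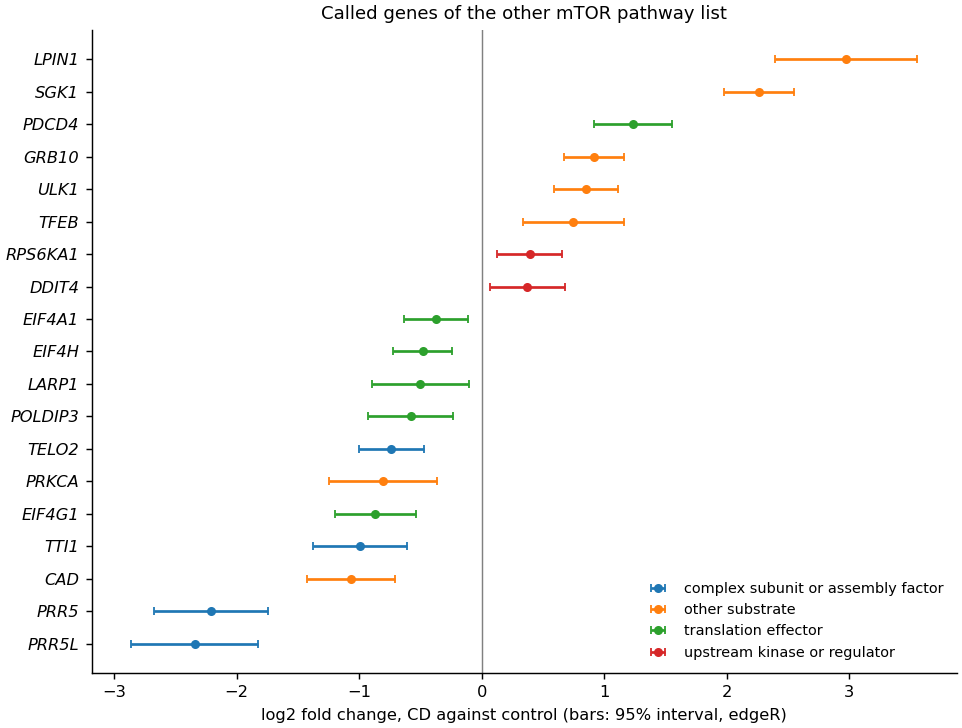
Log2 fold change of CD against control (x axis) for the 19 called genes of the list of 47 other mTOR pathway genes (y axis), with 95% intervals from edgeR; colours give the role. LPIN1 and SGK1 lie highest, PRR5 and PRR5L lowest, and the 4 called subunits and assembly factors are all below 0.

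Among the genes whose pattern over the 6 libraries was most like that of MTOR, by the Pearson correlation of log2 CPM among 8232 other genes with a symbol and at least 5 CPM on average, were DIAPH1 and FBN1 (r = 0.999 and 0.998, across libraries that form 2 groups). DIAPH1 was at 93.5, 84.4 and 52.1 CPM in CD replicates 1, 2 and 3, beside a control mean of 106 CPM, and so shared the low value of CD replicate 3. For RHEB they were CD47, APC16 and ITM2A (r = 0.992, 0.991 and 0.988), each with its highest CD value in CD replicate 3, as in CD47 at 94.7, 91.5 and 144 CPM. With 6 libraries and so many genes, such values are a description of shared shape.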

How the data were processed

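Poly(A) RNA libraries of 3 control and 3 CD samples had been made with the Nextera XT kit. The authors trimmed the reads with fastp 0.20.1, aligned them to the mink assembly NNQGG.v01 with STAR 2.7.2a and deposited raw counts per gene. Neither the program that assigned reads to genes nor its use of strand was given in the sources at hand. In the RefSeq annotation of another mink assembly, ASM_NN_V1, 4 of the 9 counted members (MTOR, MLST8, AKT1S1 and TSC2) overlap another gene, so their counts are uncertain to that extent. Besides genes, the table has 4 rows of reads that name no gene, with 29.3% to 47.2% of the reads of a library, which were left out. The authors also deposited normalized expression, a signal equal to the count divided by a DESeq2 size factor. Times that factor, 100% of 147156 values were whole within 0.01 reads, and by row order they equalled the counts shifted by 4 rows, whereas the identifiers beside them follow another order. They were used, by row, only as an alternative.

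The counts were tested with edgeR 4.0.16 in R 4.3.3 (filterByExpr with a minimum count of 10 and total of 15, TMM, glmQLFit with robust estimation and glmQLFTest, condition as the only term), with Benjamini-Hochberg adjustment over all tested genes. The standard error is the size of the log2 fold change divided by the square root of F, and its median over genes was 0.18. The fitting steps were tested on simulated data. Samples were grouped by their titles. The members and lists were chosen with earlier results of these data known. The genes named are all members, the called genes of the pathway list, the 3 genes most like MTOR and the 3 most like RHEB, and the treatment checks, of which 1 gene like MTOR and 1 treatment check are not reported here. MAPKAP1, TTI2, DEPTOR, RPS6KB2, EIF4EBP2, EEF2K, MAF1, RPS6, AKT1, HUWE1, MDN1 and ATM were named after their values were seen, and the large-protein list was picked by protein size after the values of the members were seen. The 16 alternatives for single genes were DESeq2 1.42.0, limma-voom (limma 3.58.1), 3 other scalings, no filter, a replicate block, a minimum of 50 counts in 3 libraries, limma on log2 of the normalized expression plus 1, edgeR on the recovered reads, and each library left out. A planned comparison of changes by protein length was not run, since no lengths of this assembly were at hand. Sequences and coordinates are not given here for the same reason.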

Additional observations from a re-analysis of the deposited data

How the results depend on the processing

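The number of members called lower, 4 in edgeR with all libraries, was 2 with upper quartile scaling and at an FDR under 0.01, 3 with total counts and without the filter, and 4 with DESeq2, limma-voom, DESeq2 size factors, at least 50 counts in 3 libraries and the normalized expression. With 1 library left out it lay between 2 and 5, with 2 without control replicate 1, 2 or 3 or CD replicate 2, where RPTOR and MLST8 remained, and 5 without CD replicate 3. Among all genes, the fits without control replicate 1, 2 or 3 called 4479 of 12343, 4757 of 12319 and 4410 of 12297. Without CD replicate 1, 2 or 3, 5961 of 12254, 5029 of 12280 and 7222 of 12330 were called, next to 5800 of 12148 with all libraries. The number of members called higher lay between 0 and 1 in these tests. For the other pathway list, 6 to 13 genes were higher and 8 to 13 lower with 1 library left out, the 13 higher without CD replicate 3. In the same fits, 2216 to 3616 of all tested genes were higher and 2194 to 3606 lower. Over all genes, 3016 were higher and 2784 lower, and at an FDR under 0.01 2006 were higher and 2036 lower. Upper quartile scaling called 5807 of 12148 genes, total counts 5699 of 12148, and the fit without the filter 6008 of 17882. Added after the data were seen, edgeR on reads recovered from the normalized expression called 5800 genes of 12146. With 1 library left out, RICTOR ranged from -0.077 (without CD replicate 1) to 0.79 (without CD replicate 3), TSC2 turned to 0.025 without CD replicate 3, and the log2 ratio of MTOR to MLST8, -0.25, turned to 0.13 without CD replicate 3 (range -0.54 to 0.13 over the libraries left out). The cause was not tested. The median log2 fold change of all genes moved only between 0.01 and 0.09 over these settings. Same-numbered libraries of both groups did not deviate together (correlations -0.02, -0.40 and -0.20), so the numbers are not taken as pairs. With the replicate block, 4 members were lower and 0 higher, 7 list genes were higher and 10 lower, with the calls of EIF4A1 and DDIT4 lost (FDR 0.0912 and 0.0846, edgeR), and for the ratios the smallest p that sign changes of 3 pairs allow is 0.25. The fit with the replicate block called 5408 of 12148 genes. RICTOR, with 43 to 158 counts, is the member whose depth limits precision most. The planned test of EIF4EBP1 to RPS6KB1 and the comparison by protein length were not run.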
